A study of Homo sapiens with 22 samples.

Results

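The genes described here are the subunits of the transcription factor NF-kB together with genes that NF-kB is known to switch on, several of which then hold it back. The 10 genes were taken by symbol, out of 26485 symbols counted in each library. Of these, 5 are subunit genes (NFKB1, NFKB2, RELA, RELB and REL) and 5 are feedback or target genes (NFKBIA, TNFAIP3, TNFAIP2, BIRC3 and ICAM1). All 10 passed the filter on low counts in each experiment.

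RNA was sequenced from 22 libraries, all carrying the label MDA-MB231, which names an established line of human triple-negative breast cancer cells, in a study of HDAC6, a mainly cytoplasmic deacetylase. In the first experiment, 2 libraries came from wild-type cells given Nexturastat A, an HDAC6 inhibitor, at 7.65 µM for 2 days, and 2 from wild-type cells named Ctrl, whose treatment label is DMSO. In the knockdown experiment, sampled at day 0, there were 3 libraries with the hairpin shHDAC6-1 and 3 with shHDAC6-2, both labelled as HDAC6 knockdown. The 3 shCtrl libraries beside them carry a control hairpin and are labelled wild type. In the compound experiment, sampled at day 2, wild-type cells had received HPOB, Tubastatin A or DMSO, with 3 libraries each. HPOB and Tubastatin A are HDAC6 inhibitors, and no dose of either is stated in the labels. The titles of the Tubastatin A libraries read TSA, which is also a common short form of trichostatin A, so the treatment label was followed. Nothing in the labels says that libraries of a group came from separate cultures, so the p-values measure the spread between these libraries, which may be technical.

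NF-kB acts as pairs of subunits. Inhibitory IkB proteins, among them the product of NFKBIA, hold these pairs in the cytoplasm until the IKK kinase complex marks the inhibitor for destruction. The freed pairs turn on cytokine genes such as CXCL8 and, in the same round, the genes of their own inhibitors, so that newly made IkB and the ubiquitin-editing enzyme encoded by TNFAIP3 end the response. RELA mainly pairs with the processed product of NFKB1 in this canonical branch. RELB pairs with the processed product of NFKB2 in the non-canonical branch, which runs through the kinase encoded by MAP3K14 and is restrained by the ubiquitin ligases encoded by BIRC2 and BIRC3. The files hold mRNA, so processing of the precursors and movement into the nucleus were not measured.

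Several of these genes hold letters that match the NF-kB consensus just before their start. The stretches are shown for BIRC3 and NFKB1, the genes with the highest and lowest fold change with Nexturastat A, for TNFAIP3 and NFKB2, which rose with it, and for NFKBIA, which was not called. The kB consensus, a motif of 10 bases, was searched on both strands in the 250 bases before each start in the RefSeq promoter table (GRCh38.p14). It occurred in 1828 of 35116 windows, or 5.21%. Of the 10 genes, 9 had a window, 6 had a match (NFKB1, NFKB2, REL, NFKBIA, TNFAIP3 and BIRC3) and 3 had none (RELA, TNFAIP2 and ICAM1). By window, 7 of the 13 windows of these genes held a match. RELB had no entry. Where a gene had several starts, the window with the most matches is printed, and capitals mark matches to the consensus. The stretches lie at chr11:102317234-102317483 on the plus strand for BIRC3, chr6:137867009-137867258 on the plus strand for TNFAIP3, chr10:102394328-102394577 on the plus strand for NFKB2, chr4:102501109-102501358 on the plus strand for NFKB1, and chr14:35404750-35404999 on the minus strand for NFKBIA.
BIRC3: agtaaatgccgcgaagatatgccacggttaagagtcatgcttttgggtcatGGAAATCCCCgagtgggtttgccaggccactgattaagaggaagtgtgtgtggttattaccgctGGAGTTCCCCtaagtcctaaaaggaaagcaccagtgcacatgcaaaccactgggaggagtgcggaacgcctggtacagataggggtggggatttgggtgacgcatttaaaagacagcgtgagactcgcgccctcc
TNFAIP3: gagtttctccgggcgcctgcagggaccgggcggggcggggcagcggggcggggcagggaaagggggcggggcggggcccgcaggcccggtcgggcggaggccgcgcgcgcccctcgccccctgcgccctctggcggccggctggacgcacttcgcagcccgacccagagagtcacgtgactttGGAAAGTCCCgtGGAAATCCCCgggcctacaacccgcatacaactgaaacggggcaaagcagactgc
NFKB2: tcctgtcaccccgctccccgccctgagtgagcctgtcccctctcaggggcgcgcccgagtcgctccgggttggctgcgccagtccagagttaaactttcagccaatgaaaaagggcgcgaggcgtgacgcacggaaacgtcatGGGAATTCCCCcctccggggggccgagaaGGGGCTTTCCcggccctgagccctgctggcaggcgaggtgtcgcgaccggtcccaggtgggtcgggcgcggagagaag
NFKB1: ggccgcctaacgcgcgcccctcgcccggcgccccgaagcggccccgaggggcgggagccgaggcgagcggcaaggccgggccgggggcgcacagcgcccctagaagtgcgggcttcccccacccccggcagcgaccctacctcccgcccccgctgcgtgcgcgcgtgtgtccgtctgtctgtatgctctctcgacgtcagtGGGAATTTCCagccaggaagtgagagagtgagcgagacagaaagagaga
NFKBIA: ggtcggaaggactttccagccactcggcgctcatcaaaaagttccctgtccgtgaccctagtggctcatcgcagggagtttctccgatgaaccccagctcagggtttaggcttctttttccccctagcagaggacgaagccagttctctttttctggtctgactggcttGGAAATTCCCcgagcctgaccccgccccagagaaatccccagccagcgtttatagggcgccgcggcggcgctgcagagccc
The first base of a match lay 199 and 135 bases before the start of BIRC3, and 67 and 55 bases before that of TNFAIP3. In NFKB2 the matches began 107, 106 and 78 bases before the start, the first and second of them overlapping. NFKB1 had a match 49 bases and NFKBIA a match 81 bases before the start. These are matches of letters, and binding was not measured.

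Depth ran from 31.2 M to 85.9 M counts per library. The knockdown libraries hold a difference that touches every value given for them. In replicates 1 and 2 of all 3 knockdown groups, CDKN2A stood at 140 to 184 CPM, the count scaled to a common library size, and IRS4 at 337 to 679 CPM. In the Nexturastat A and Ctrl libraries CDKN2A reached at most 0.0345 CPM and IRS4 was at 0 CPM, and both were at 0 CPM in all libraries of the compound experiment. CD44, a surface marker of MDA-MB231, was at 21.0 to 23.3 CPM in those 6 knockdown libraries and at 259 to 626 CPM in all others. The 8 genes taken as expressed markers of MDA-MB231, CD44 among them, summed to 1209 to 1291 CPM in those 6 libraries. In all others the sum was 4491 to 6971 CPM. In replicate 3, CDKN2A stood at 7.11 CPM with shHDAC6-1, 24.1 CPM with shHDAC6-2 and 0 CPM in shCtrl. IRS4 was split in the same way there, at 7.31, 22.3 and 0 CPM. Replicates 1 and 2 were therefore tested as 6 libraries and replicate 3 was described apart, and the part of these differences in the values below was not tested. Whether the label MDA-MB231 holds for every knockdown library was not tested either, so the hairpin values are not to be taken as effects in MDA-MB231 without that limit. HDAC6 mRNA averaged 12.4 CPM ± 0.552 with shHDAC6-1 and 13.2 CPM ± 1.16 with shHDAC6-2, against 49.2 CPM ± 5.18 in shCtrl (SD, n = 2 each, replicates 1 and 2). In replicate 3 it was at 9.20 CPM with shHDAC6-1 and 11.6 CPM with shHDAC6-2, against 24.9 CPM in shCtrl.

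**Figure D1:**
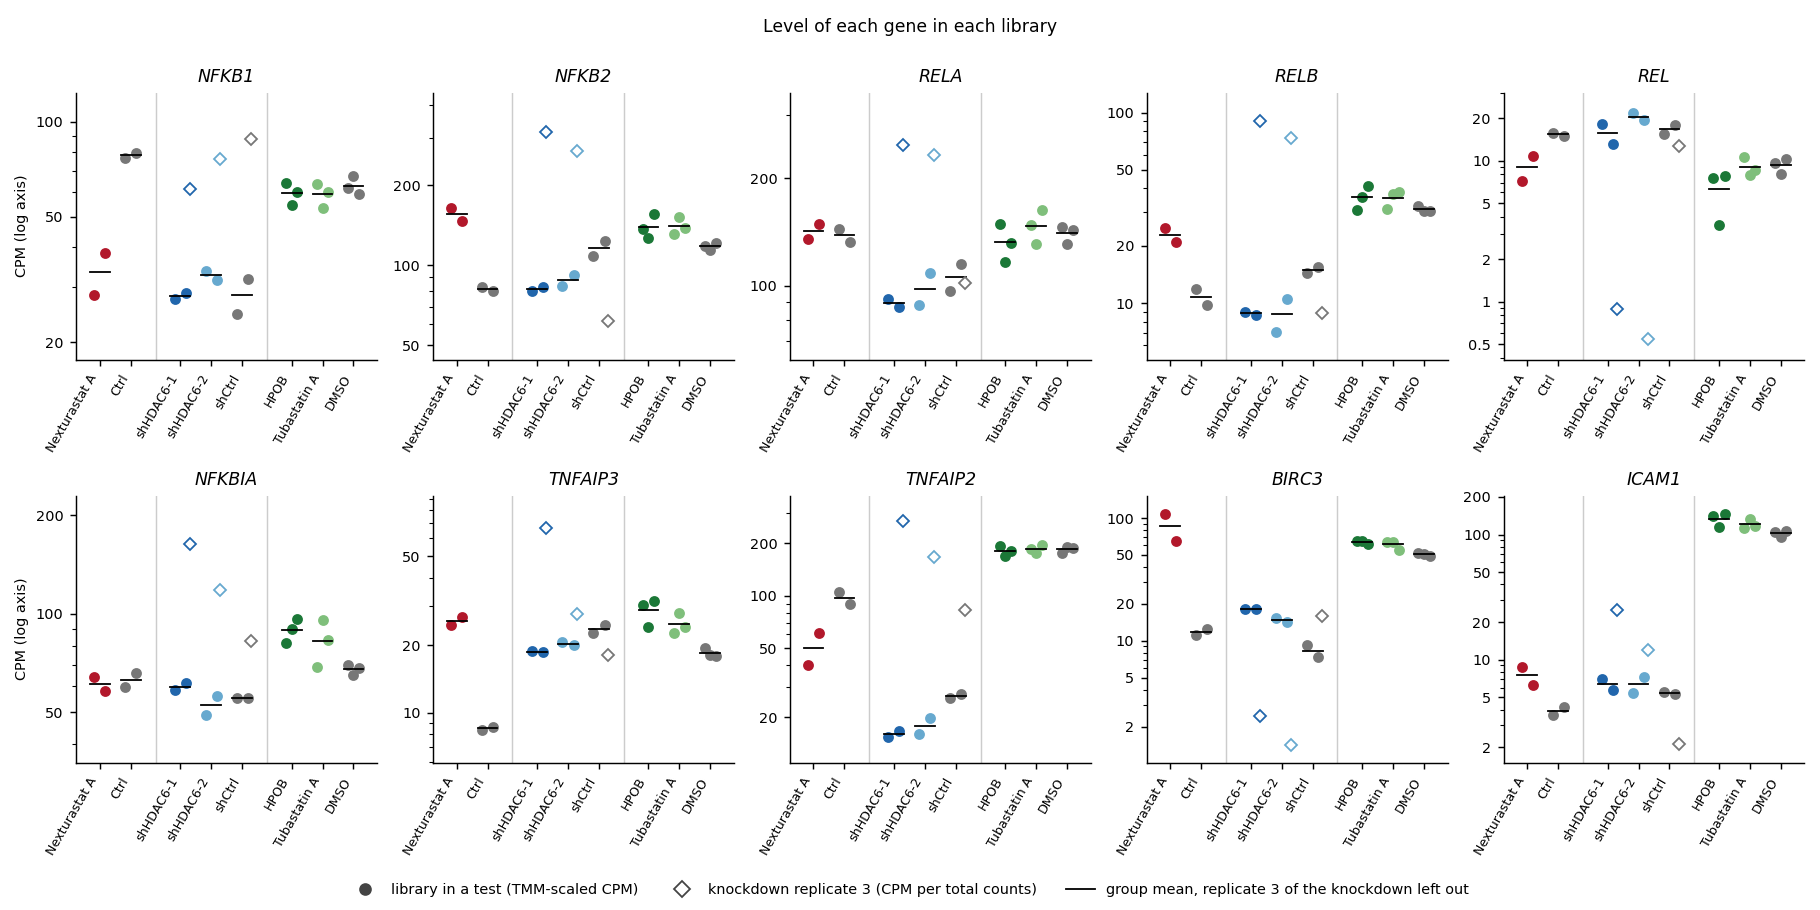
Level of each of the 10 genes in each of the 22 libraries (CPM, logarithmic axis), with filled points for libraries in a test, bars for the group mean and open diamonds for replicate 3 of the knockdown. BIRC3 lies at 108 and 65.0 CPM with Nexturastat A against 11.1 and 12.6 CPM in Ctrl, while RELA lies between 133 and 148 CPM in both groups.

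Nexturastat A split the subunit genes: NFKB2 and RELB, the pair of the non-canonical branch, rose, NFKB1 and REL fell, and RELA did not pass the test. Among the feedback and target genes BIRC3, TNFAIP3 and ICAM1 rose, TNFAIP2 fell and NFKBIA did not pass. Altogether 5 of the 10 genes were called higher and 3 lower (edgeR's quasi-likelihood test, Benjamini-Hochberg adjusted p under 0.05 over all genes tested). The share of all 16678 genes called was 36.6%, with 21.1% higher and 15.5% lower, so the 8 called genes of the set stand beside a background in which a call was common. Groups of 2 libraries often did not overlap either: 6499 of all 16678 genes lay higher without overlap and 5863 lower. In bulk RNA such as this, fewer cells expressing a gene and less RNA of it per cell cannot be told apart.

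NFKB1 (chromosome 4, 102501329 to 102617302 on GRCh38), which encodes a precursor and DNA-binding subunit, stood at 28.2 and 38.4 CPM with Nexturastat A, against 77.0 and 79.7 CPM in Ctrl. The groups did not overlap, with a log2 fold change of -1.24 (SE 0.17, edgeR adjusted p = 0.00329). NFKB2 (chromosome 10, 102394110 to 102402529), the precursor of the non-canonical branch, stood at 164 and 146 CPM with Nexturastat A, against 83.1 and 80.04 CPM in Ctrl. Both treated libraries were above both controls, by 0.93 on the log2 scale (SE 0.12, edgeR adjusted p = 0.00292). The ratio of NFKB2 to NFKB1 per kilobase of transcript was 6.97 and 4.55 in the Nexturastat A libraries, against 1.29 and 1.20 in the Ctrl libraries, so the precursor genes, close in level in the controls, lay well apart in the treated cells.

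RELB (chromosome 19, 45001430 to 45038198) stood at 24.9 and 20.9 CPM with Nexturastat A, against 11.8 and 9.80 CPM in Ctrl, a log2 fold change of 1.08 (SE 0.19, edgeR adjusted p = 0.00624). RELB was below RELA in all 4 libraries, and its ratio to RELA per kilobase was 0.255 and 0.196 with Nexturastat A, against 0.114 and 0.102 in Ctrl. RELA (chromosome 11, 65653596 to 65663094), the main transactivating subunit of the canonical branch, stood at 135 and 148 CPM with Nexturastat A, against 144 and 133 CPM in Ctrl. The RELA groups overlapped, and the 95% interval of the log2 fold change ran from -0.25 to 0.32 (edgeR adjusted p = 0.840). REL (chromosome 2, 60881521 to 60931610), a subunit best known from lymphoid cells, stood at 7.15 and 10.8 CPM with Nexturastat A, against 15.8 and 14.8 CPM in Ctrl, a log2 fold change of -0.77 (SE 0.23, edgeR adjusted p = 0.0382). Without Ctrl replicate 1 or Ctrl replicate 2 the REL call was lost (edgeR adjusted p = 0.209 and 0.162), as it was with a filter at a mean of 5 CPM, and the RELB call was lost without Ctrl replicate 2 (edgeR adjusted p = 0.0837).

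The inhibitor genes did not move together. NFKBIA (chromosome 14, 35401511 to 35404749) stood at 64.2 and 58.1 CPM with Nexturastat A, against 59.7 and 66.1 CPM in Ctrl. These ranges overlapped, and the 95% interval of the log2 fold change was -0.35 to 0.27 (edgeR adjusted p = 0.834). TNFAIP3 (chromosome 6, 137867188 to 137883312) stood at 24.6 and 26.6 CPM with Nexturastat A, against 8.36 and 8.64 CPM in Ctrl. That is a log2 fold change of 1.59 (SE 0.16, edgeR adjusted p = 0.00133), so TNFAIP3 rose 3.01-fold and NFKBIA was not called. Among other IkB genes, given below, NFKBIE was called higher and NFKBIZ lower.

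BIRC3 (chromosome 11, 102317450 to 102339403), which encodes a ubiquitin ligase induced by NF-kB, had the largest fold change among the 10 genes. It stood at 108 and 65.0 CPM with Nexturastat A, against 11.1 and 12.6 CPM in Ctrl, 7.32-fold higher (log2 2.87, SE 0.26, edgeR adjusted p = 0.000948). Its ratio to its neighbour and relative BIRC2 per kilobase was 1.10 and 0.713 with Nexturastat A, against 0.120 and 0.128 in Ctrl. TNFAIP2 (chromosome 14, 103123442 to 103137439), a gene first known as TNF-induced in endothelium, stood at 40.0 and 60.7 CPM with Nexturastat A, against 105 and 89.6 CPM in Ctrl (log2 -0.95, SE 0.21, edgeR adjusted p = 0.0132). That call was lost without Ctrl replicate 1 (edgeR adjusted p = 0.0940). ICAM1 (chromosome 19, 10270835 to 10286615), an adhesion molecule for leukocytes, stood at 8.74 and 6.27 CPM with Nexturastat A, against 3.601 and 4.17 CPM in Ctrl (log2 0.95, SE 0.25, edgeR adjusted p = 0.0255). Its call was lost without Ctrl replicate 1 or Ctrl replicate 2 (edgeR adjusted p = 0.204 and 0.129). ICAM1 is spanned over 14274 bases by an antisense gene, and TNFAIP3 is overlapped over 1046 bases by another. REL shares 5702 bases with a gene on its own strand. None of these overlapping genes is among the counted symbols, and the sources used here do not say whether reads were counted by strand.

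Base composition moved with these fold changes. The median log2 fold change with Nexturastat A was -0.13 in the quintile of genes with the least GC in the transcript and 0.15 in the quintile with the most. The quintile that holds RELA and NFKBIA had a median of 0.08. After trends on GC content and transcript length were removed, RELA came to -0.36 (edgeR adjusted p = 0.0261) and NFKBIA to -0.65 (edgeR adjusted p = 0.00509), both called lower. ICAM1 at 0.57 was then no longer called (edgeR adjusted p = 0.110). The removal also took out each library's mean deviation over genes, so the part of GC content in these shifts was not tested. BIRC3 at 2.99, TNFAIP3 at 1.36, NFKB2 at 0.64, RELB at 0.71, NFKB1 at -1.52, REL at -0.83 and TNFAIP2 at -1.16 kept their calls.

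**Figure D2:**
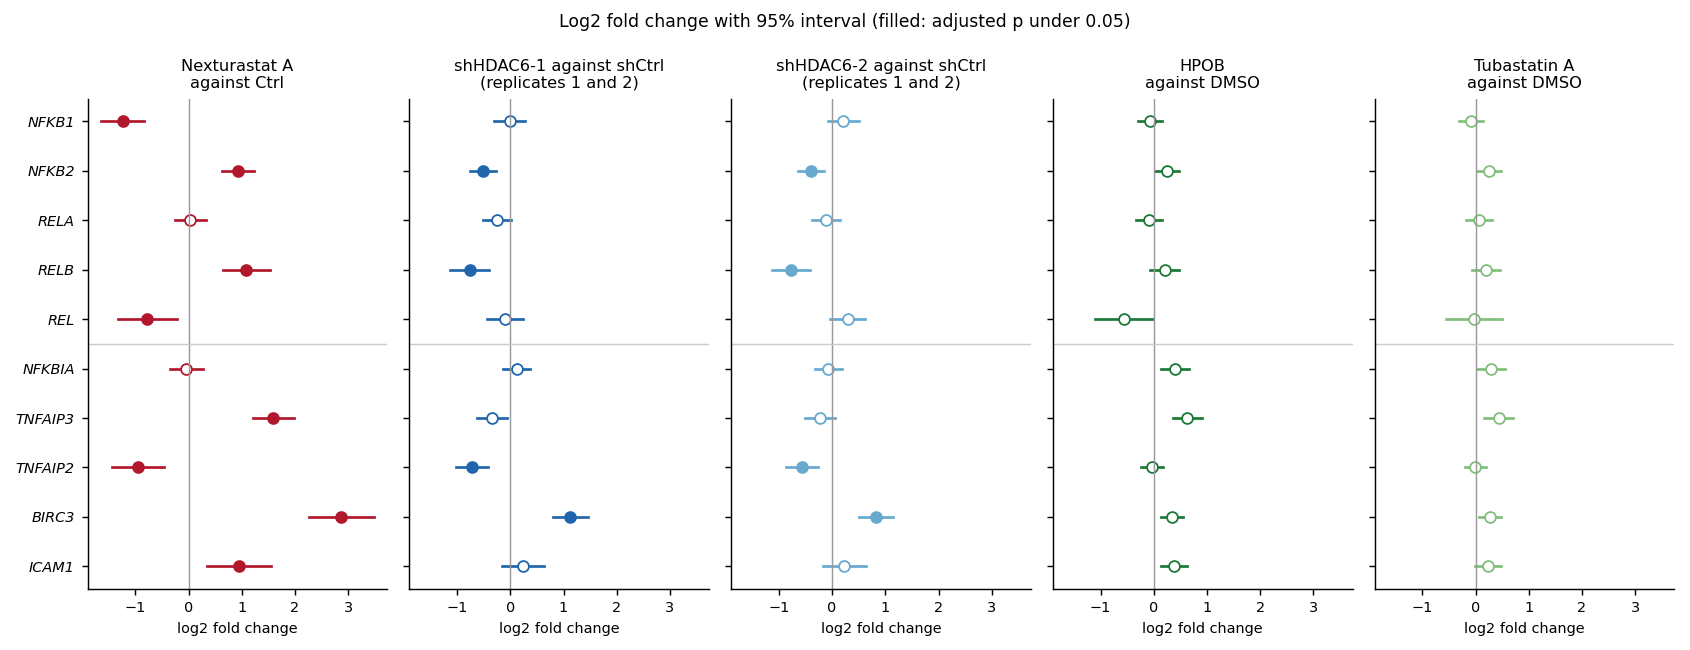
Log2 fold change of each gene in 5 comparisons, with the 95% interval of the edgeR fit, filled points marking an adjusted p under 0.05 and a line parting the subunits (above) from the feedback and target genes. With Nexturastat A the values run from -1.24 (NFKB1) to 2.87 (BIRC3), and with HPOB from -0.56 (REL) to 0.63 (TNFAIP3).

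Several cytokine genes rose with Nexturastat A beside this mixed set. CXCL8, a neutrophil chemokine, stood at 217 and 307 CPM with Nexturastat A, against 35.5 and 43.8 CPM in Ctrl (log2 2.72, SE 0.20, edgeR adjusted p = 0.000508). CCL20, a chemokine for lymphocytes and dendritic cells, stood at 8.86 and 6.29 CPM with Nexturastat A, against 0.478 and 0.421 CPM in Ctrl (log2 4.07, edgeR adjusted p = 0.000597). CSF2, IL1A and CXCL1 also rose, by 1.61, 1.35 and 0.93 on the log2 scale (edgeR adjusted p = 0.0272, 0.0149 and 0.0304). Those last calls were each lost when either Ctrl library was left out, and those of CSF2 and CXCL1 also with the GC and length trends removed. IL6, at 0.798 and 0.968 CPM against 0.495 and 0.303 CPM in Ctrl, and IL1B, at a log2 value of 0.28, did not pass (edgeR adjusted p = 0.0935 and 0.335). The list of cytokine and chemokine genes, like the other lists below, was chosen with earlier results of these data known. Of its 18 measured genes, 9 were called higher and 2 lower, beside 21.1% and 15.5% of all genes. Its genes had a median log2 fold change of 1.04 beside 0.03 over all genes tested. CCL2, a monocyte chemokine, and EBI3, a subunit of dimeric cytokines, were among them at 3.91 and 2.99 on the log2 scale (edgeR adjusted p = 0.00260 and 0.00249). Thus the cytokine rise with Nexturastat A came with higher TNFAIP3 and BIRC3 and with no called rise of NFKBIA.

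Elsewhere in the pathway, the counts of called genes are to be read beside the 21.1% of all genes called higher and 15.5% called lower with Nexturastat A. Among 5 other IkB genes, NFKBIE was called higher (log2 1.08, edgeR adjusted p = 0.00570) and NFKBIZ, a nuclear IkB protein, lower (log2 -0.81, edgeR adjusted p = 0.0117). Of 12 other negative regulators, 1 was called higher and 2 lower. These were TNIP1, which encodes a partner of the TNFAIP3 product (log2 0.90, edgeR adjusted p = 0.0119), and the ubiquitin ligase ITCH and the deubiquitinase OTULIN (log2 -0.77 and -0.47, edgeR adjusted p = 0.00496 and 0.0276). Of 26 IKK and upstream signalling genes, 2 were called higher and 4 lower. MAP3K14, the kinase of the non-canonical branch, averaged 60.5 CPM with Nexturastat A and was 2.04-fold higher than in Ctrl (log2 1.03, edgeR adjusted p = 0.00604). TRADD, an adaptor of the TNF receptor, also rose (log2 0.80, edgeR adjusted p = 0.0137), whereas TRAF5 and MALT1 fell (log2 -0.86 and -0.59, edgeR adjusted p = 0.00739 and 0.0268). Of 13 measured receptors, 2 were called higher and 2 lower, among them TNFRSF1A, the main TNF receptor, at -0.65 (edgeR adjusted p = 0.0142), and IL1RAP, the partner chain of the interleukin-1 receptor, at 0.76 (edgeR adjusted p = 0.0105). TNFRSF1B averaged only 0.182 CPM with Nexturastat A and 0.0171 CPM in Ctrl, and TLR3 fell by 1.84 on the log2 scale (edgeR adjusted p = 0.0144). Other targets of NF-kB had 10 of 22 called higher and 2 lower, with a median of 0.52. SAA1, an acute phase protein, MMP9, a matrix protease, and the complement gene C3 had log2 fold changes of 4.75, 4.68 and 3.46 (edgeR adjusted p = 0.00131, 0.000952 and 0.00509), each with a Ctrl mean under 1 CPM, and TNFRSF9 reached 1.60 (edgeR adjusted p = 0.00607). SAA1 and TNFRSF1B, at Ctrl means of 0.102 and 0.0171 CPM, could pass the filter on low counts through the treated libraries alone.

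With the hairpins, in replicates 1 and 2, NFKB2 and RELB were lower than in shCtrl, the opposite direction to that with Nexturastat A. TNFAIP2 was lower and BIRC3 higher, while NFKBIA, TNFAIP3, ICAM1, NFKB1, RELA and REL did not pass. With either hairpin 1 of the 10 genes was called higher and 3 lower. Among all 17702 genes tested, 30.5% were called with shHDAC6-1, made up of 15.3% above shCtrl and 15.2% below it. With shHDAC6-2 the share was 27.6%, made up of 14.4% above shCtrl and 13.2% below it, and the 4 called genes of the 10 are read beside that background. A lack of overlap was common too. With shHDAC6-1, 5616 of the 17702 genes lay above shCtrl without overlap and 5951 below it, and with shHDAC6-2 5438 and 5340. The comparisons of the hairpins share their shCtrl libraries.

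BIRC3 stood at 18.1 and 18.2 CPM with shHDAC6-1 and 15.4 and 14.2 CPM with shHDAC6-2, against 9.32 and 7.32 CPM in shCtrl. No hairpin library overlapped the controls, and the log2 fold changes were 1.13 (SE 0.16, edgeR adjusted p = 9.49e-06) and 0.83 (SE 0.16, edgeR adjusted p = 0.000313). NFKB2 stood at 80.4 and 82.9 CPM with shHDAC6-1 and 83.7 and 92.0 CPM with shHDAC6-2, against 108 and 123 CPM in shCtrl. Its log2 fold changes were -0.50 (edgeR adjusted p = 0.00230) with shHDAC6-1 and -0.40 (edgeR adjusted p = 0.0137) with shHDAC6-2. RELB stood at 8.96 and 8.71 CPM with shHDAC6-1 and 7.08 and 10.5 CPM with shHDAC6-2, against 14.5 and 15.5 CPM in shCtrl. The RELB values were low in all 6 libraries, yet those of the hairpins lay below both controls (log2 -0.76 and -0.78, edgeR adjusted p = 0.00181 and 0.00168). TNFAIP2 stood at 15.4 and 16.7 CPM with shHDAC6-1 and 16.0 and 19.8 CPM with shHDAC6-2, against 25.7 and 27.4 CPM in shCtrl (log2 -0.72 and -0.57, edgeR adjusted p = 0.000548 and 0.00476).

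The canonical inhibitor genes did not pass in these libraries. NFKBIA stood at 58.4 and 61.4 CPM with shHDAC6-1 and 49.1 and 56.0 CPM with shHDAC6-2, against 55.1 and 55.2 CPM in shCtrl. Both shHDAC6-1 libraries lay above the controls and the shHDAC6-2 libraries on either side of them. The 95% intervals of its log2 fold change were -0.13 to 0.37 with shHDAC6-1 and -0.32 to 0.18 with shHDAC6-2. TNFAIP3 stood at 18.8 and 18.6 CPM with shHDAC6-1 and 20.6 and 20.1 CPM with shHDAC6-2, against 22.7 and 24.7 CPM in shCtrl, so all hairpin libraries lay below the controls (log2 -0.34 and -0.22, edgeR adjusted p = 0.0601 and 0.244). ICAM1 stood at 5.46 to 7.25 CPM with the hairpins, against 5.30 and 5.53 CPM in shCtrl. NFKB1 ran from 27.3 to 33.6 CPM with the hairpins, against 24.7 and 31.7 CPM in shCtrl. For RELA the hairpin libraries held 86.9 to 108 CPM, against 96.5 and 115 CPM in shCtrl, and for REL 13.1 to 21.7 CPM, against 15.4 and 18.0 CPM in shCtrl. With the hairpins taken apart, RELA lay below both controls and ICAM1 above both with shHDAC6-1, and REL lay above both with shHDAC6-2, without passing the test (edgeR adjusted p = 0.155, 0.377 and 0.174). As given above, such a lack of overlap was common over all genes. NFKB1 overlapped the controls with either hairpin, as did RELA and ICAM1 with shHDAC6-2 and REL with shHDAC6-1.

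GC content moved with the hairpin comparisons too, in the other direction from Nexturastat A. The median log2 fold change was 0.21 in the quintile of genes with the least GC and -0.32 in the quintile with the most with shHDAC6-1, and 0.12 and -0.23 with shHDAC6-2. NFKB2 and RELB have transcripts of 62.4% and 65.4% GC and BIRC3 one of 34.8%. With the trends and each library's mean deviation removed, NFKB2 came to -0.15 and -0.13 and was no longer called (edgeR adjusted p = 0.0571 and 0.0980). RELB at -0.35 and -0.42, TNFAIP2 at -0.38 and -0.36 and BIRC3 at 0.86 and 0.72 kept their calls with shHDAC6-1 and shHDAC6-2. TNFAIP3 was then called lower with both hairpins (log2 -0.28 and -0.25, edgeR adjusted p = 0.0142 and 0.0255). NFKBIA and ICAM1 were then called higher with shHDAC6-1 (log2 0.28 and 0.48, edgeR adjusted p = 0.00190 and 0.0208). The NFKB2 call was also lost without shHDAC6-1 replicate 1 (edgeR adjusted p = 0.0535) and, with shHDAC6-2, without shCtrl replicate 2 or shHDAC6-2 replicate 1 (edgeR adjusted p = 0.0734 and 0.0837). The TNFAIP2 call with shHDAC6-2 was lost without shHDAC6-2 replicate 1 (edgeR adjusted p = 0.0619). Without shCtrl replicate 1, RELA and TNFAIP3 were called lower with shHDAC6-1 (log2 -0.36 and -0.40, edgeR adjusted p = 0.0259 and 0.0494).

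The hairpins were not told apart on these genes. Between shHDAC6-1 and shHDAC6-2 edgeR called none of the 17702 genes, DESeq2's Wald test also called 0, and 6.25% had an unadjusted p under 0.05. Of the 10 genes REL alone had an unadjusted p under 0.05, at 15.6 CPM ± 3.59 with shHDAC6-1 and 20.5 CPM ± 1.64 with shHDAC6-2 (SD, n = 2 each, edgeR adjusted p = 0.775). The 95% interval of the BIRC3 difference was -0.02 to 0.61 on the log2 scale and that of NFKBIA was -0.06 to 0.44.

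Cytokine genes in replicates 1 and 2 were a mixed list as well, where shHDAC6-1 gave 5 of 21 above shCtrl and 4 below it by the test, and shHDAC6-2 gave 4 above and 5 below. The shares of all genes above and below shCtrl by the test were 15.3% and 15.2% with shHDAC6-1, and 14.4% and 13.2% with shHDAC6-2. CXCL8 stood at 49.6 and 59.8 CPM with shHDAC6-1 and 39.7 and 38.4 CPM with shHDAC6-2, against 28.7 and 17.2 CPM in shCtrl. It rose by 1.26 (edgeR adjusted p = 7.86e-06) and 0.77 (edgeR adjusted p = 0.00149) on the log2 scale. CSF2 rose by 1.23 and 1.15 (edgeR adjusted p = 0.000223 and 0.000439). IL1A stood at 1.73 and 1.36 CPM with shHDAC6-1 and 0.897 and 1.49 CPM with shHDAC6-2, against 0.181 and 0.0318 CPM in shCtrl (edgeR adjusted p = 1.48e-05 and 5.54e-05), where the lower control held 2 counts. CXCL10, an interferon-induced chemokine, fell by 2.05 and 2.23 (edgeR adjusted p = 0.000118 and 4.86e-05). IL6 lay under 1 CPM in every one of these libraries and was called lower with shHDAC6-1 (edgeR adjusted p = 0.0313), a call lost when any 1 of the 6 libraries was left out. CCL20, CXCL1 and IL1B did not pass. In these libraries the rise of CXCL8, CSF2 and IL1A thus stood beside a higher BIRC3, with NFKBIA and TNFAIP3 not called. Among the 5 other IkB genes, NFKBIZ alone was called, and it was higher with both hairpins. Its log2 fold changes were 0.57 with shHDAC6-1 and 0.62 with shHDAC6-2 (edgeR adjusted p = 0.00480 and 0.00247). With Nexturastat A the same gene was called lower. TNFAIP3 was called lower with shHDAC6-1 in 5 of 14 alternative settings, DESeq2's Wald test and a filter at a mean of 5 CPM among them.

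Among the other pathway genes, 2 of 26 IKK and upstream signalling genes were called higher and 3 lower with each hairpin. All counts here are read beside the shares of all genes called. These were 15.3% higher and 15.2% lower with shHDAC6-1, and 14.4% higher and 13.2% lower with shHDAC6-2. Of 12 other negative regulators, shHDAC6-1 gave 3 higher and 1 lower, and shHDAC6-2 gave 3 higher and 0 lower. TAX1BP1, an adaptor of the TNFAIP3 product, averaged 117 CPM ± 2.84 with shHDAC6-1 and 106 CPM ± 12.3 with shHDAC6-2, against 47.4 CPM ± 7.51 in shCtrl (SD, n = 2 each, log2 1.31 and 1.17, edgeR adjusted p = 1.05e-07 and 5.42e-07). TNIP1 averaged 87.3 CPM with shHDAC6-1 and 100 CPM with shHDAC6-2, against 50.1 CPM in shCtrl (log2 0.80 and 1.00, edgeR adjusted p = 1.75e-05 and 1.13e-06). RIPK1, a kinase of the TNF receptor complex, averaged 41.8 and 45.4 CPM with the hairpins, against 25.4 CPM in shCtrl (log2 0.72 and 0.84, edgeR adjusted p = 0.000218 and 4.28e-05). IKBKB, the main kinase of the canonical IKK complex, was lower, at 38.8 and 45.0 CPM with the hairpins, against 62.8 CPM in shCtrl (log2 -0.69 and -0.48, edgeR adjusted p = 0.000220 and 0.00610). IKBKE, a relative of IKBKB, was lower too (log2 -0.82 and -0.64, edgeR adjusted p = 0.000259 and 0.00268). IL1RAP and IL1R1, the chains of the interleukin-1 receptor, were higher, IL1RAP by 0.86 and 0.83 and IL1R1 by 0.96 and 1.27 on the log2 scale (edgeR adjusted p = 0.000121, 0.000181, 0.00759 and 0.000778). Other NF-kB targets had 6 of 23 called higher with shHDAC6-1 and 5 with shHDAC6-2, and 0 lower in either. Among them G0S2 rose by 1.01 and 0.96 and PLAU, the urokinase gene, by 0.77 and 0.71 (edgeR adjusted p = 2.73e-05, 5.60e-05, 0.000214 and 0.000504). GADD45B, a stress gene, rose by 0.76 with shHDAC6-2 (edgeR adjusted p = 3.26e-05).

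Replicate 3 gave other values, with 1 library per group and so no test. Each ratio below is of counts per total counts, with an exact 95% interval that covers counting error only. RELB was at 90.9 CPM with shHDAC6-1 and 73.8 CPM with shHDAC6-2, against 8.93 CPM in shCtrl, ratios of 10.2 (9.35 to 11.1) and 8.27 (7.58 to 9.03). NFKB2 was at 318 CPM with shHDAC6-1 and 268 CPM with shHDAC6-2, against 62.0 CPM in shCtrl, ratios of 5.13 (4.96 to 5.30) and 4.33 (4.18 to 4.48). Both genes were thus far above shCtrl here and below it in replicates 1 and 2. ICAM1 was at 24.9 CPM with shHDAC6-1 and 12.1 CPM with shHDAC6-2, against 2.11 CPM in shCtrl, ratios of 11.8 (9.90 to 14.1) and 5.71 (4.75 to 6.90). TNFAIP2 was at 268 and 167 CPM with shHDAC6-1 and shHDAC6-2, against 82.4 CPM in shCtrl. RELA was at 248 and 232 CPM, against 102 CPM in shCtrl. These 5 genes were over 2-fold higher with both hairpins, as were 18.3% of 13031 genes with a mean of at least 1 CPM.

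BIRC3, the gene that was higher in replicates 1 and 2, was at 2.44 CPM with shHDAC6-1 and 1.43 CPM with shHDAC6-2, against 15.8 CPM in shCtrl, ratios of 0.154 (0.132 to 0.179) and 0.0900 (0.0712 to 0.113). Its ratio to BIRC2 per kilobase was nevertheless higher in replicate 3, at 0.476 with shHDAC6-1 and 0.201 with shHDAC6-2, against 0.126 in shCtrl. In replicates 1 and 2 that ratio was 0.267 to 0.307 with the hairpins, against 0.148 and 0.138 in shCtrl. REL was at 0.884 and 0.543 CPM with the hairpins, against 12.8 CPM in shCtrl, ratios of 0.0692 (0.0539 to 0.0876) and 0.0425 (0.0289 to 0.0605). Over 2-fold lower with both hairpins were these 2 genes of the set and 34.4% of all 13031 genes. TNFAIP3 was at 66.5 CPM with shHDAC6-1 and 27.5 CPM with shHDAC6-2, against 18.1 CPM in shCtrl, ratios of 3.68 and 1.52. NFKBIA was at 164 and 119 CPM with the hairpins, against 82.6 CPM in shCtrl, ratios of 1.99 and 1.44, and NFKB1 was at 61.4 and 76.5 CPM, against 88.4 CPM in shCtrl. CXCL8 was at 138 CPM with shHDAC6-1 and 70.1 CPM with shHDAC6-2, against 35.3 CPM in shCtrl, and CSF2 at 12.99 and 7.37 CPM, against 1.74 CPM in shCtrl. In replicate 3 the values of NFKBIA, TNFAIP3 and CXCL8 were thus all above shCtrl with both hairpins, those of NFKBIA near the median of genes with like GC content given next.

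The ratios of replicate 3 followed the GC content of the transcripts over all genes. The median log2 ratio of the quintile with the least GC (30.2% to 41.1%) was -2.66 with shHDAC6-1 and -2.70 with shHDAC6-2, and that of the quintile with the most (58.6% to 76.8%) was 1.23 and 1.09. BIRC3 (34.8% GC) and REL (38.7% GC) fall in the lowest quintile, and NFKB2 (62.4%), TNFAIP2 (62.0%) and RELB (65.4%) in the highest. RELB, at 3.35 and 3.05, and ICAM1 (56.9% GC), at 3.56 and 2.51 on the log2 scale, lay above the medians of their quintiles with both hairpins, as did NFKB2, RELA and TNFAIP3. NFKB1, REL and BIRC3 lay below them with both hairpins, though BIRC3 with shHDAC6-1 was at -2.70, close to the median of -2.66. NFKBIA (53.1% GC) was at 0.99 and 0.52, where its quintile had medians of 0.69 and 0.67. TNFAIP2 and NFKBIA lay above their medians with shHDAC6-1 and below them with shHDAC6-2. CXCL8, whose transcript has 33.4% GC, was at 1.97 and 0.99 on the log2 scale against medians of -2.66 and -2.70 in its quintile. The hairpin and shCtrl libraries of replicate 3 also differ in CDKN2A and IRS4, as given above. The part of GC content or of that difference in each gene's ratio was not tested.

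**Figure D3:**
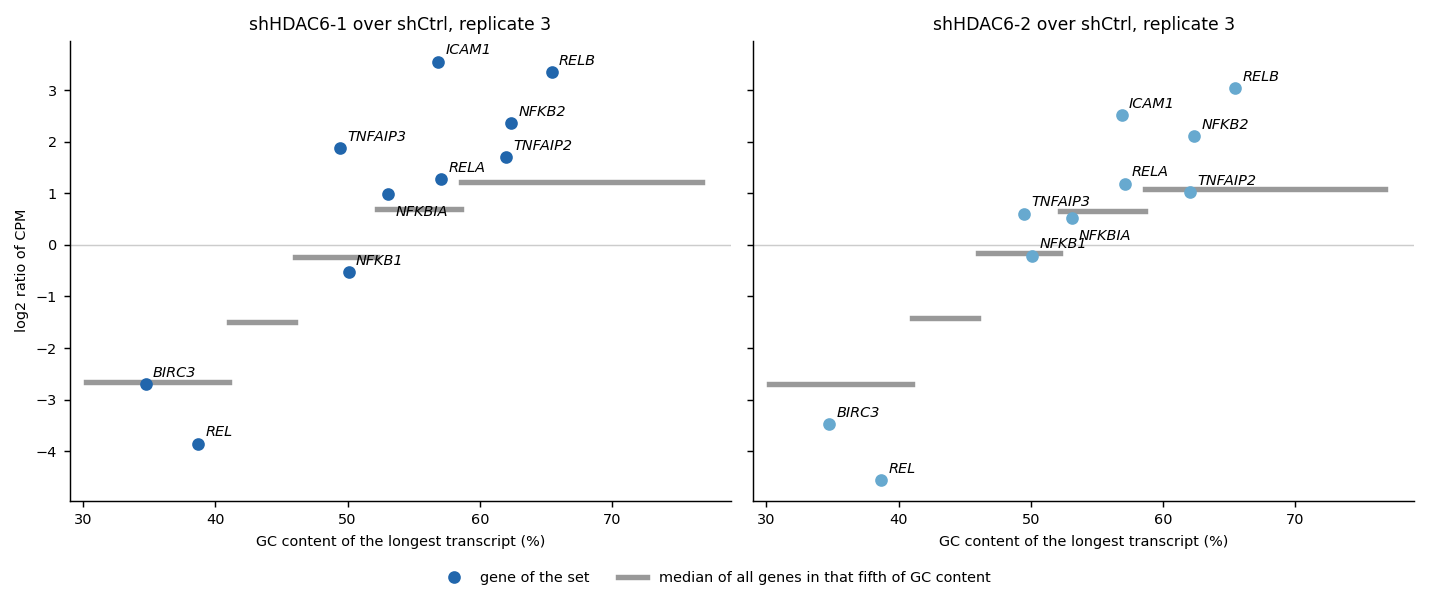
Log2 ratio of each gene in replicate 3 of the knockdown (hairpin over shCtrl) against the GC content of its longest transcript, with grey bars for the median of all genes in each GC quintile. BIRC3 and REL lie at 34.8% and 38.7% GC with log2 ratios of -2.70 or lower, and RELB at 65.4% GC lies above 3 with both hairpins.

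With HPOB, 4 of the 5 feedback and target genes stood above DMSO in every library, yet none passed the adjusted test. TNFAIP3 stood at 30.3, 24.0 and 31.5 CPM with HPOB, against 19.4, 18.0 and 17.9 CPM with DMSO. The groups did not overlap (log2 0.63, SE 0.13, edgeR adjusted p = 0.169). NFKBIA stood at 81.3, 90.2 and 96.7 CPM with HPOB, against 69.9, 65.2 and 68.1 CPM with DMSO (log2 0.40, SE 0.12, edgeR adjusted p = 0.360). All HPOB values of NFKBIA lay above all DMSO values. BIRC3 stood at 65.2, 65.4 and 61.0 CPM with HPOB, against 51.8, 50.6 and 49.1 CPM with DMSO (log2 0.34, SE 0.09, edgeR adjusted p = 0.315). ICAM1 stood at 141, 115 and 146 CPM with HPOB, against 105, 95.8 and 107 CPM with DMSO (log2 0.38, SE 0.11, edgeR adjusted p = 0.336). TNFAIP2, at 193, 169 and 181 CPM against 176, 191 and 188 CPM with DMSO, overlapped.

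Among the subunit genes with HPOB, NFKB2 at 137, 126 and 156 CPM lay above DMSO at 118, 114 and 121 CPM (log2 0.24, edgeR adjusted p = 0.469). REL at 7.59, 3.48 and 7.73 CPM lay below DMSO at 9.56, 8.05 and 10.2 CPM (log2 -0.56, edgeR adjusted p = 0.477). RELB, NFKB1 and RELA overlapped with DMSO, at 30.7 to 41.4, 54.7 to 63.8 and 116 to 148 CPM with HPOB, against 30.4 to 32.5, 59.3 to 67.2 and 131 to 146 CPM with DMSO. Over the whole set, 5 genes lay higher without overlap, beside 11.2% of all 15338 genes, and 1 lower, beside 10.4%. Of the 10 genes, 6 had an unadjusted p under 0.05 with edgeR, beside 10.4% of all genes. The adjusted test called 0 of the 10 genes and 4 of 15338 in all, or 0.0261%. DESeq2's Wald test called 1 of the 10, TNFAIP3 (adjusted p = 0.00537), and edgeR called TNFAIP3 without Tubastatin A replicate 2 (adjusted p = 0.0301).

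Of the cytokine genes, CXCL8, IL1A and TNFSF15 rose with HPOB. CXCL8 stood at 176, 244 and 199 CPM with HPOB, against 78.5, 76.3 and 72.7 CPM with DMSO (log2 1.44, SE 0.16, edgeR adjusted p = 0.0109). IL1A stood at 5.12, 6.65 and 8.21 CPM with HPOB, against 1.31, 1.61 and 1.95 CPM with DMSO (log2 2.04, SE 0.25, edgeR adjusted p = 0.0147). TNFSF15 is a TNF family cytokine and was called too (log2 0.76, edgeR adjusted p = 0.0147). Of 21 measured cytokine and chemokine genes, a list chosen with earlier results of these data known, 3 were called higher and 0 lower. A positive log2 fold change was seen in 20 of them, beside 7830 of all 15338 genes. The median was 0.88 beside 0.01 over all genes. The calls of CXCL8 and IL1A with HPOB were lost when any DMSO library or HPOB replicate 2 was left out, and that of IL1A also without HPOB replicate 3. IL6, a cytokine of inflammation, stood at 56.5, 76.3 and 70.0 CPM with HPOB, against 33.1, 31.3 and 31.0 CPM with DMSO (log2 1.09, edgeR adjusted p = 0.0682, or 0.00736 with the GC and length trends removed). CSF2, CXCL1 and IL1B had log2 values of 1.37, 1.41 and 1.06 without passing (edgeR adjusted p = 0.169, 0.2002 and 0.182). Without Tubastatin A replicate 2 edgeR called CSF2, CXCL1 and IL1B (adjusted p = 0.0151, 0.0325 and 0.0102), and DESeq2's Wald test called CSF2 and IL1B (adjusted p = 0.00186 and 0.00908) as well as IL6. CCL20 was at 0.275 to 0.634 CPM with HPOB and 0.0641 to 0.136 CPM with DMSO. None of the other IkB genes, negative regulators, signalling genes, receptors or further targets were called, where only 4 genes were called in all. A positive log2 fold change was seen in 5 of 5 other IkB genes and 21 of 23 further targets, beside 7830 of all 15338 genes. It was seen in 5 of 12 negative regulators, 11 of 26 signalling genes and 8 of 14 receptors. Without overlap, 4 other IkB genes and 11 further targets lay higher, and 0 and 1 lower, beside 11.2% and 10.4% of all genes.

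**Figure D4:**
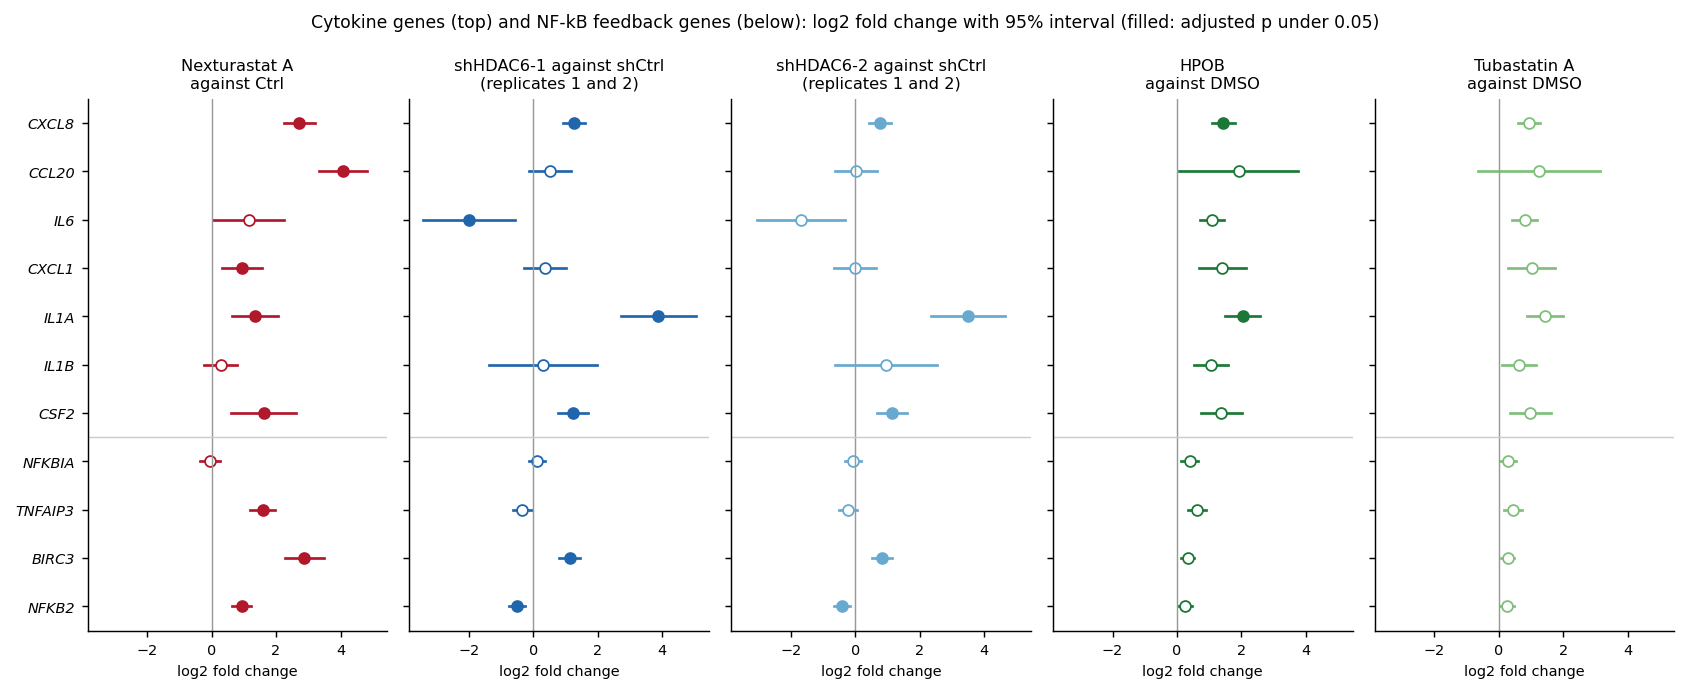
Log2 fold change of 7 cytokine genes (above the line) and of NFKBIA, TNFAIP3, BIRC3 and NFKB2 (below it) in 5 comparisons, with the 95% interval of the edgeR fit and filled points for an adjusted p under 0.05. With HPOB, CXCL8 lies at 1.44 and NFKBIA at 0.40, and with Nexturastat A they lie at 2.72 and -0.04.

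With Tubastatin A none of the 10 genes passed either. NFKBIA stood at 68.9, 95.5 and 83.0 CPM with Tubastatin A, against 69.9, 65.2 and 68.1 CPM with DMSO, and 1 treated library lay within the control range (log2 0.28, edgeR adjusted p = 0.857). TNFAIP3 stood at 22.7, 27.9 and 24.1 CPM with Tubastatin A, against 19.4, 18.0 and 17.9 CPM with DMSO (log2 0.43, edgeR adjusted p = 0.857). BIRC3 stood at 64.1, 63.8 and 55.3 CPM with Tubastatin A, against 51.8, 50.6 and 49.1 CPM with DMSO (log2 0.27, edgeR adjusted p = 0.857). TNFAIP3, BIRC3, NFKB2 and ICAM1 lay above DMSO without overlap, 4 of the 10 genes beside 9.15% of all genes, and 0 lay below it, beside 7.55%. NFKB2 was at 131 to 151 CPM with Tubastatin A, against 114 to 121 CPM with DMSO. ICAM1 was at 112 to 132 CPM, against 95.8 to 107 CPM with DMSO. The ranges of NFKB1, RELA, RELB, REL and TNFAIP2 overlapped with DMSO. EdgeR called 0 of the 15338 genes with Tubastatin A and DESeq2's Wald test 23. An unadjusted p under 0.05 was seen in 4 of the 10 genes and in 4.94% of all genes. CXCL8 stood at 123, 185 and 126 CPM with Tubastatin A, all above DMSO (log2 0.93, edgeR adjusted p = 0.446). With the GC and length trends removed it was called (log2 0.90, edgeR adjusted p = 0.00124). IL1A, CXCL1, CSF2, IL6 and IL1B also lay above DMSO without overlap (log2 1.43, 1.02, 0.98, 0.81 and 0.625). None of them was called (edgeR adjusted p = 0.446, 0.857, 0.857, 0.594 and 0.857), and CCL20 overlapped. Of 21 measured cytokine and chemokine genes, 20 had a positive log2 fold change, beside 8154 of all 15338 genes. Their median was 0.73 beside 0.01 over all genes. Positive values were also seen in 5 of 5 other IkB genes and 20 of 23 other NF-kB targets. They were seen in 4 of 12 other negative regulators, 13 of 26 signalling genes and 11 of 14 receptors. Without overlap, 4 other IkB genes and 9 other targets lay higher and 0 of either lower, beside 9.15% and 7.55% of all genes.

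Between the compounds, Tubastatin A against HPOB gave 0 called genes with edgeR and with DESeq2, and 0 of the 10 genes had an unadjusted p under 0.05, beside 3.14% of all genes. The log2 difference was -0.12 for NFKBIA (95% interval -0.38 to 0.14), -0.20 for TNFAIP3 (-0.47 to 0.07), -0.06 for BIRC3 (-0.27 to 0.14) and -0.15 for ICAM1 (-0.39 to 0.09). REL had the largest difference of the 10, at 0.53 (-0.01 to 1.07, edgeR adjusted p = 0.996), and was the only one of them whose Tubastatin A and HPOB libraries did not overlap, at 7.89 to 10.7 CPM with Tubastatin A and 3.48 to 7.73 CPM with HPOB. For CXCL8 it was -0.51 (-0.85 to -0.17, edgeR adjusted p = 0.996). No dose of either compound is stated in the labels, so a difference of compound and a difference of dose cannot be told apart. HPOB replicate 3 and Tubastatin A replicate 2 had the highest HDAC6 levels of the compound experiment, at 126 and 122 CPM, and HPOB replicate 2 the lowest, at 66.9 CPM. With HPOB replicate 3 and Tubastatin A replicate 2 left out together, 0 of the 10 genes were called with either compound. CXCL8, IL6, IL1A, IL1B and CSF2 were then called with HPOB (log2 1.47, 1.06, 1.86, 0.92 and 1.16), among 20 genes in all.

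The effect of Nexturastat A was set against those of the other compounds in a joint fit of 13 libraries, each compound against its own controls. Of the 10 genes, 4 were called with a higher effect and 2 with a lower one against HPOB, where 17.5% of 17083 genes were called (9.81% higher, 7.69% lower). Against Tubastatin A these were 5 and 2, where 19.1% of genes were called (10.6% higher, 8.46% lower). These contrasts share the Nexturastat A, Ctrl and DMSO libraries. BIRC3 differed by 2.59 and 2.66 on the log2 scale, TNFAIP3 by 1.01 and 1.22, RELB by 0.92 and 0.95 and NFKB2 by 0.73 and 0.74, while NFKB1 differed by -1.11 and -1.09. The controls stood at unlike levels. BIRC3 averaged 11.8 CPM in Ctrl and 50.5 CPM with DMSO, TNFAIP3 8.50 and 18.4 CPM, and RELB 10.8 and 31.2 CPM. NFKB2 averaged 81.6 and 118 CPM, and NFKB1, the other way, 78.4 and 62.7 CPM. With Nexturastat A and HPOB, BIRC3 averaged 86.7 and 63.9 CPM, TNFAIP3 25.6 and 28.6 CPM, and RELB 22.9 and 36.0 CPM. The part of the control levels in these differences was not tested. For NFKBIA the difference was -0.39 against HPOB (95% interval -0.78 to 0.00364, edgeR adjusted p = 0.163) and -0.26 against Tubastatin A (edgeR adjusted p = 0.352), so a lower effect of Nexturastat A on NFKBIA was not shown. The dose of Nexturastat A is known and no dose of HPOB or Tubastatin A is stated in the labels, and the compounds were used in different experiments, so compound, dose and experiment cannot be told apart here.

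Per kilobase of the longest transcript, RELA, NFKBIA and NFKB2 were the most abundant of the 10 genes in most groups, and REL the least or nearly so. With Nexturastat A, NFKB2 (42.8 to 48.1 CPM per kilobase) and RELA (42.5 to 46.6) overlapped at the top, followed by NFKBIA (37.3 to 41.2). BIRC3 (12.5 to 20.9), TNFAIP2 (8.54 to 12.97), RELB (9.12 to 10.9) and NFKB1 (6.90 to 9.40) each overlapped with the next in order, then came TNFAIP3 (5.19 to 5.62), ICAM1 (1.93 to 2.69) and REL (0.635 to 0.958). In Ctrl the order was RELA (41.7 to 45.2), overlapping NFKBIA (38.3 to 42.4), then NFKB2 (23.4 to 24.3), TNFAIP2 (19.1 to 22.5), overlapping NFKB1 (18.9 to 19.5), then RELB, BIRC3, TNFAIP3, REL and ICAM1, all under 6 CPM per kilobase. BIRC3 thus had rank 4 with Nexturastat A and rank 7 in Ctrl.

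In the compound experiment the order was led by NFKBIA with HPOB (52.2 to 62.1 CPM per kilobase), followed by RELA, ICAM1, NFKB2 and TNFAIP2, each overlapping the next. With Tubastatin A it ran NFKBIA, RELA, NFKB2, TNFAIP2 and ICAM1, again overlapping in turn. With DMSO, RELA (41.1 to 46.0) and NFKBIA (41.9 to 44.8) overlapped at the top. ICAM1 was at 29.5 to 32.9 CPM per kilobase with DMSO but at 1.11 to 1.28 in the Ctrl libraries of the first experiment, although both carry the treatment label DMSO. Levels set across experiments were not tested. In replicates 1 and 2 of the knockdown NFKBIA had the highest mean in all 3 groups, overlapping RELA with shHDAC6-2 and NFKB2 in shCtrl, at 37.5 to 39.4 CPM per kilobase with shHDAC6-1, 31.5 to 36.0 with shHDAC6-2 and 35.4 in shCtrl. RELA and NFKB2 followed, and REL had the lowest mean, at 1.16 to 1.93 with the hairpins and 1.37 to 1.60 in shCtrl.

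The genes whose pattern was most like that of a feedback gene were named by Pearson's r of log2 CPM over 22 libraries, each centred on its own controls, among 11230 genes. For BIRC3 they were PLOD2, RND3 and CREG1 (r = 0.981, 0.976 and 0.971), for NFKBIA MYL6B, TMEM101 and TMEM11 (r = 0.954, 0.945 and 0.944), and for NFKB2 PLD3, RRAS and DAPK3 (r = 0.994 for each). The libraries of replicate 3 carry much of this spread: over the 19 libraries without it the values were 0.963, 0.939 and 0.965 for BIRC3, 0.888, 0.876 and 0.845 for NFKBIA, and 0.979, 0.978 and 0.976 for NFKB2.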

How the data were processed

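The authors deposited 1 table of read counts per gene symbol for each library. Per the submitters' processing notes, their tools were Trim Galore 0.6.7, STAR 2.7.9a, featureCounts 2.0.3 and DESeq2 1.30.1 on GRCh38. The sources used here do not give the annotation or the strandedness. GENCODE release 29 supplied positions, length and GC content for 23899 of 26485 symbols (90.2%), and RefSeq the promoters.

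Each experiment was fitted on the deposited counts with edgeR 4.0.16 in R 4.3.3 (TMM factors, filterByExpr by group with a minimum count of 10 and a minimum total of 15, robust quasi-likelihood F test), and differences of effects as interaction terms in 1 joint fit. Called means a Benjamini-Hochberg adjusted p under 0.05 over all genes tested. Levels are TMM-scaled CPM of each fit. Replicate 3 of the knockdown is given as CPM per total counts. The code was tested on simulated data. The 10 genes and the other lists were chosen with earlier results of these data known. In each other list, the genes named are among the up to 4 with the largest change of those called without overlap. A called gene may therefore go unnamed. HDAC6 and 7 cytokine genes were chosen for naming beforehand. Alternatives were DESeq2 1.42.0, other filters, removal of GC and length trends (splines with 3 degrees of freedom), a replicate block and leaving out libraries. The trend removal also took out each library's mean deviation over genes. The 20 pairs of replicates differed by more than sampling noise. Depth was 31.2 M to 85.9 M counts per library. Intervals for ratios cover counting error only.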

Additional observations from a re-analysis of the deposited data

Results flagged for a closer look

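The effect of Nexturastat A against Ctrl differed from that of HPOB or of Tubastatin A against DMSO for 7 of the 10 genes, by an interaction term in the joint edgeR fit with Benjamini-Hochberg adjustment over 17083 genes. Against HPOB, 4 of the 10 genes were called with a higher effect and 2 with a lower one, where 17.5% of all genes were called. Against Tubastatin A these were 5 and 2, where 19.1% of all genes were called. Both sets of contrasts share the Nexturastat A, Ctrl and DMSO libraries, so they do not stand for separate evidence. Compound, dose and experiment cannot be told apart here, and levels in Ctrl and DMSO were unlike, as given above.

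Against HPOB, the effect on BIRC3 was higher by 2.59 on the log2 scale (adjusted p = 4.47e-06), that on TNFAIP3 by 1.01 (adjusted p = 0.00270), that on RELB by 0.92 (adjusted p = 0.00770) and that on NFKB2 by 0.73 (adjusted p = 0.00588). For NFKB1 the difference was -1.11 (adjusted p = 0.00108) and for TNFAIP2 -0.87 (adjusted p = 0.00943). The TNFAIP2 call was lost without Ctrl replicate 1 and the RELB call without Ctrl replicate 2.

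Against Tubastatin A, the differences were 2.66 for BIRC3 (adjusted p = 3.05e-06), 1.22 for TNFAIP3 (adjusted p = 0.000637), 0.95 for RELB (adjusted p = 0.00640), 0.74 for NFKB2 (adjusted p = 0.00560) and 0.78 for ICAM1 (adjusted p = 0.0204). They were -1.09 for NFKB1 (adjusted p = 0.00118) and -0.89 for TNFAIP2 (adjusted p = 0.00767). The ICAM1 call was lost without Ctrl replicate 1 or Nexturastat A replicate 1, and the RELB call without Ctrl replicate 2.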

How the results depend on the processing

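Over all alternatives, 2225 of 2328 values for single genes kept their direction and side of the threshold, counting as kept 101 whose sign differed while called in neither fit. Another 49 were no longer called, 45 were newly called and 9 turned. For each of these the cause was not tested.

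With all 9 knockdown libraries in 1 fit, the hairpins gave 0 called genes of the set in either direction and 0 genes in all, against 5401 with shHDAC6-1 and 4880 with shHDAC6-2 in replicates 1 and 2. With shHDAC6-1, NFKB2 turned to 0.95, RELB to 1.78, TNFAIP2 to 1.41 and IL6 to 1.86 on the log2 scale. With shHDAC6-2, NFKB2 turned to 0.78, RELB to 1.48, TNFAIP2 to 0.78 and BIRC3 to -0.16. With GC and length trends removed, RELA with Nexturastat A turned to -0.36, 5 of the 10 genes were called lower with Nexturastat A and 3 higher with shHDAC6-1. That setting called 15 genes in all with HPOB and 1 with Tubastatin A.

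At a mean of at least 5 CPM, 3586 genes were called with Nexturastat A against 6112, and 2 with HPOB against 4. The HPOB count was 120 by DESeq2's Wald test, which called 1 gene of the set higher, 14 with no filter, 15 with the 2 groups alone and 20 with HPOB replicate 3 and Tubastatin A replicate 2 left out, a setting chosen after seeing the data. DESeq2 called 23 genes with Tubastatin A. Between the hairpins, 12 genes were called with no filter and 57 with the 2 groups alone.

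With 1 library left out in turn, Nexturastat A gave 3 to 5 of the 10 genes higher, 1 to 3 lower and 1774 to 8922 genes in all, the fewest without Ctrl replicate 1. shHDAC6-1 gave 2 to 5 lower and 3160 to 5999 genes, and shHDAC6-2 gave 1 to 3 lower. The hairpins against each other gave 1 to 66 genes. HPOB gave 0 to 1 higher and 0 to 78 genes. The Nexturastat A effect minus that of HPOB gave 1 to 2 lower and 1603 to 3950 genes, and minus that of Tubastatin A 1857 to 4262 genes.

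Same-numbered libraries deviated together by r = 0.105 in the first experiment, -0.0465 to 0.161 in the knockdown and -0.155 to 0.198 in the compound experiment. For differently numbered libraries r was -0.105, -0.161 to 0.0465 and -0.302 to 0.275. With 2 libraries per group these values mirror each other by construction, and in the compound experiment the ranges overlap. Whether same-numbered libraries belong together was therefore not settled. With a replicate block, 7 genes were called with HPOB, and the 10 genes gave 5 higher and 3 lower with Nexturastat A, 1 and 4 with shHDAC6-1 and 1 and 3 with shHDAC6-2. Groups of 2 or 3 libraries limit the precision, and REL, ICAM1, TNFAIP3, RELB and BIRC3 lay under 20 CPM in the Ctrl libraries.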
